A study of Mus musculus with 12 samples.

Results

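The B cell receptor is built from a membrane immunoglobulin and a pair of signalling chains, and 9 genes of this receptor, its relatives and the factors that switch it on were followed on every array of a mouse hematopoietic stem cell (HSC) series. They are Cd79a and Cd79b (the signalling chains), Vpreb1 (surrogate light chain of the precursor receptor), Blnk and Rasgrp3 (signalling), Fcmr and Fcrla (Fc receptor relatives), and Ebf1 and Pax5 (transcription factors). A probe was taken when its platform annotation gave exactly 1 symbol and that symbol was one of the 9. This gave 17 probes for the 9 genes, of 46632 probes for 17711 named genes in all, with 5 genes having several probes.

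HSCs were sorted from bone marrow as lineage-negative cells positive for c-kit, Sca-1 and CD150 and negative for CD48, and RNA of 200 cells was amplified in 2 rounds for each of 12 Illumina arrays. The study set cells with mutant p53 (mp53) beside wild-type (WT) cells after irradiation. There were 6 groups of 2 arrays. Winners were mp53 cells of R26-mp53 mosaic mice 3 weeks after 2.5 Gy, and losers were the WT cells of such mice. Non-competing mp53 cells came from fully recombined R26-mp53 mice, and non-competing WT cells from WT mice, both irradiated in the same way. The remaining groups were mp53 and WT cells of mosaic mice that were not irradiated, which the labels also call free of competition. In mosaic mice the mp53 cells carried GFP and the WT cells did not. The labels give no ages, no mutation, no way of recombination and no antibodies of the lineage mixture. They name biological replicates without saying which animals or pools these were, so p-values measure the spread between these samples, which may be technical.

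In B cells, Cd79a and Cd79b pass the signal of bound antigen to the kinase Syk, and the adaptor Blnk joins Syk to Btk and phospholipase C gamma. The lipid product of that step recruits Rasgrp3, which loads Ras proteins with GTP. Before a light chain exists, Vpreb1 and lambda5 pair with the heavy chain in the precursor receptor. Ebf1 specifies the B lineage together with E proteins and switches on Cd79a, Vpreb1 and Pax5, and Pax5 then commits the cell. These genes mark B lineage cells and are usually low in HSCs. In RNA of 200 pooled cells, fewer cells of a type and less RNA per cell cannot be told apart.

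The promoters of 4 of these genes are shown because the letters of known B lineage motifs stand in them and because these genes had their highest level in the same group of cells. Sequences are the 250 bases before an annotated start, from RefSeq (GRCm38.p6), which held 8 of the 9 genes and 10 promoters for them. Each reads 5′ to 3′ on the strand of its gene. The start used for Fcrla is an inner one, since that gene spans chr1:170917594-170932216 and the window lies within it. Capitals mark CAAGGG, a recognition sequence of Ebf1, and CAGGTG, a site of E proteins, on either strand (CAGGTG reads CACCTG there).
Cd79a, chr7:24897247-24897496, plus strand: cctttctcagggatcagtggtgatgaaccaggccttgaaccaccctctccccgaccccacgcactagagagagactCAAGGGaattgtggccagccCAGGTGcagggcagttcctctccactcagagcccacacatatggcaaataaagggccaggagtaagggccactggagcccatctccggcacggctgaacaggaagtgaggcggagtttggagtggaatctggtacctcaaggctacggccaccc
Vpreb1, chr16:16869256-16869505, minus strand: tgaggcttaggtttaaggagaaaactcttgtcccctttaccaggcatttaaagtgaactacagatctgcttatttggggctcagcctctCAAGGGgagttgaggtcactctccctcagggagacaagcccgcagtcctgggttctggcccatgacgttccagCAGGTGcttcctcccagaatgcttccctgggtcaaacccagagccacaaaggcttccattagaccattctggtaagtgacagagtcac
Blnk, chr19:40994222-40994471, minus strand: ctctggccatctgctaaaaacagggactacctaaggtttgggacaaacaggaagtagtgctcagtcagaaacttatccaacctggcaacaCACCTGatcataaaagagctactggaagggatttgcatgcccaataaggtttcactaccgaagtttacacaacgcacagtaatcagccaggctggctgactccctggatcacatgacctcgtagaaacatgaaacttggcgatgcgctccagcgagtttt
Fcrla, chr1:170927584-170927833, minus strand: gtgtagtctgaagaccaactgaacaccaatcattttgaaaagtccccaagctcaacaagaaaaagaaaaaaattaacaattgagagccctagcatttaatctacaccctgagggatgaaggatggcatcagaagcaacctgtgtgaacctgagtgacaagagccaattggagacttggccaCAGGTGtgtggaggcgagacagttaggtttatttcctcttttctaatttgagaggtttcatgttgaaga
CAAGGG stood 174 bases before the start of Cd79a and 161 before that of Vpreb1. The letters CAAGGG were chosen with these promoters in view, and 15.0% of 32851 mouse promoters of the same length hold them on one strand or the other. CAGGTG stood 154 bases before the start of Cd79a, 160 before that of Blnk and 88 before that of Vpreb1. For Fcrla it stood 69 bases before the inner start. Of all promoters, 17.2% hold it. The Ets letters GGAAGT were found for Blnk, Cd79a, Ebf1 and Rasgrp3, against 19.7% of all promoters. CCCNNGGG, a palindrome of Ebf1, was found for 0 of the 8 genes, against 11.8% of all promoters. A match describes letters in the window and does not show a bound site.

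Levels below are log2 intensities after background correction and quantile normalization, and detection means a detection p-value under 0.05. Array brightness varied: the 95th percentile of raw intensity was 258 and 1079 in winners, 107 and 171 in losers, and 82.3 to 482 on the other 8 arrays, with 8968 to 13489 probes detected (19.2% to 28.9%). The 2 arrays of a group correlated at 0.768 to 0.920. The Y-linked Eif2s3y was detected on 8 of 12 arrays, among them both winner arrays (8.77 and 7.89) and 1 loser array (4.33 and 6.95), so the arrays of a group could differ in sex. In tests over all probes, limma's adjusted p was under 0.05 for 0 of 13512 probes (0%) in each of the 9 comparisons. At an unadjusted p under 0.05, limma counted 1853 probes for winner against loser and 130 to 2101 in the 8 other comparisons. No change of a single gene passed the test, and differences are given as values with their errors.

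Winner HSCs had the highest mean of all 6 groups for each of the 8 B lineage genes that could be measured. A gene counted as measured when both arrays of at least 1 group detected it, and 6 of the 8 met this in winners alone. For these 6 the rank follows largely from that filter and is given as a description. On both winner arrays 8 of the 9 genes were detected, against 1 and 2 on the loser arrays, 2 and 6 on those of non-competing mp53 cells, 3 and 4 for non-competing WT cells, 2 and 5 for unirradiated mp53 cells, and 4 and 2 for unirradiated WT cells. Of all 17 probes, 6 were higher on both winner arrays than on each of the 10 others, those of Cd79a, Cd79b, Blnk, Fcrla, Fcmr and Rasgrp3, against 1.94% of all 46632 probes on the array. No probe of the 17 was lower on both winner arrays than on all others, against 2.3% of all probes.

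**Figure D1:**
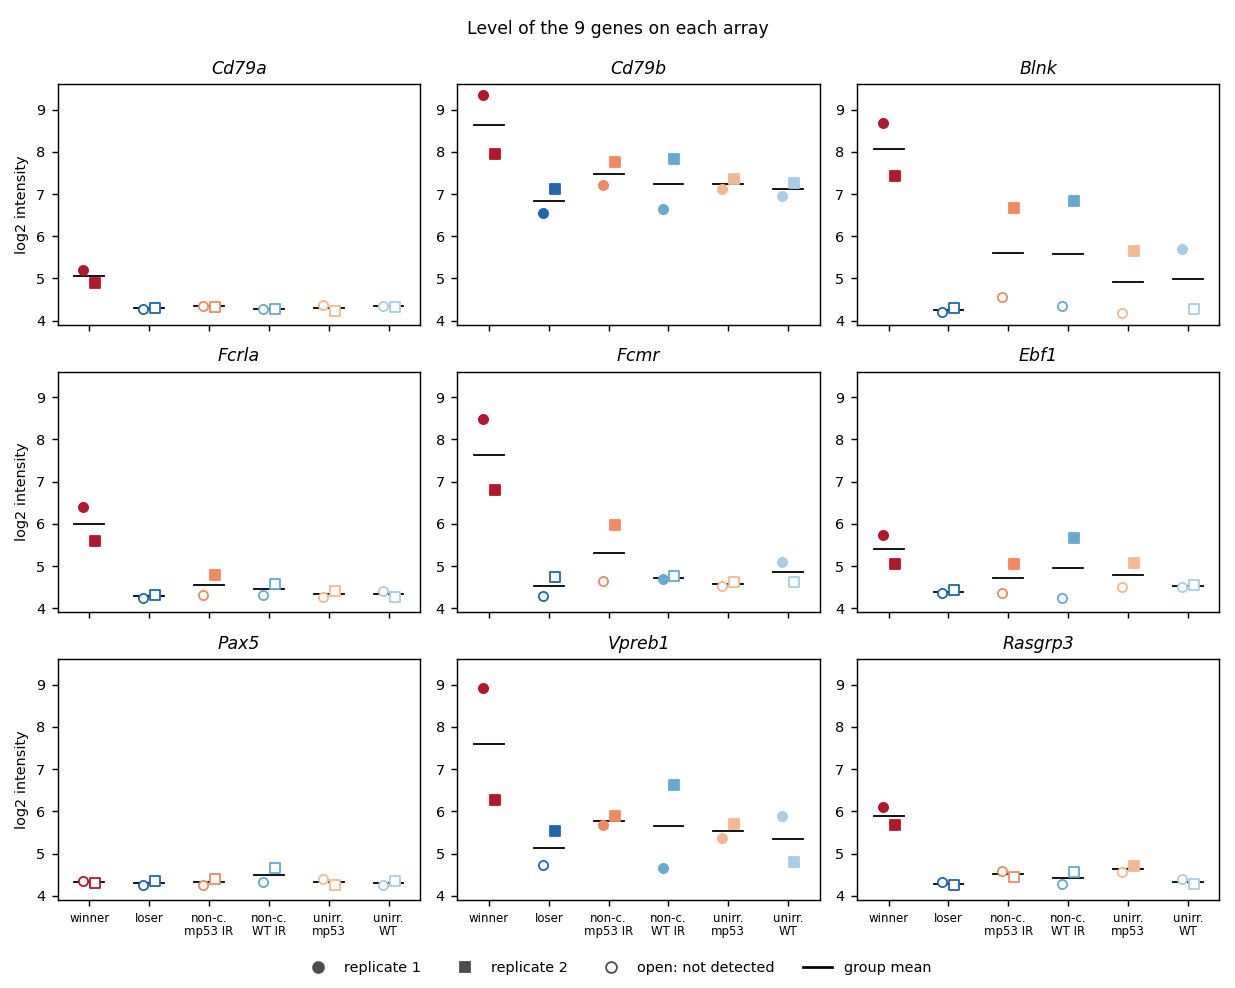
Log2 intensity (vertical axis) of each of the 9 genes on the 12 arrays, by group (horizontal axis: winner, loser, non-competing irradiated mp53 and WT, unirradiated mosaic mp53 and WT). Circles are replicate 1, squares replicate 2, open symbols arrays on which the probe was not detected, and bars group means (n = 2). Both winner points lie above all others for 6 genes, from Cd79a at 5.21 and 4.90 to Cd79b at 9.34 and 7.94, and all 12 points of Pax5 are open.

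The receptor chains differed from each other in where they were detected. Cd79a, which carries one of the receptor's signalling tails, stood at 5.21 and 4.90 in winners (probe ILMN_1246266) and was not detected on the 10 other arrays, which lay between 4.24 and 4.36. The winner arrays stood apart from all others, close to the detection limit. Its mean was 5.06 ± 0.22 in winners and 4.29 ± 0.01 in losers (SD, n = 2 each), at least 1.16-fold higher. The difference of 0.76 (SE 0.23) had an unadjusted limma p of 0.00993, and it turned to -0.071 when arrays were scaled by their medians in place of quantiles.

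Cd79b, the partner chain, was detected on all 12 arrays. It read 9.34 and 7.94 in winners, 6.56 and 7.13 in losers, 7.21 and 7.75 in non-competing mp53 cells, and 6.66 and 7.84 in non-competing WT cells. Unirradiated mp53 cells had 7.13 and 7.36, and unirradiated WT cells 6.97 and 7.26. The signal outside winners was therefore well above background in every group, and replicate 2 of the winners lay close to replicate 2 of both non-competing groups. Winners exceeded losers by 1.79 (SE 0.53; 3.47-fold; unadjusted limma p 0.00889), with 2.78 within replicate 1 and 0.81 within replicate 2. A second probe of Cd79b was not detected on any array (4.26 to 4.45), so the probes of this gene disagree.

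Vpreb1, which stands in for the variable part of the light chain in the precursor receptor, was detected on 11 arrays. It had 8.93 and 6.26 in winners, against 4.72 and 5.52 in losers, the lower of which was not detected. Non-competing mp53 cells had 5.68 and 5.89, non-competing WT cells 4.66 and 6.63, unirradiated mp53 cells 5.37 and 5.69, and unirradiated WT cells 5.89 and 4.80. Winner replicate 1 lay above every other array, while winner replicate 2 lay below replicate 2 of the non-competing WT cells. The difference of winners from losers was 2.47 (SE 0.89; 5.56-fold; unadjusted limma p 0.0227), with 4.21 in replicate 1 and 0.74 in replicate 2. Without winner replicate 1 it was 1.14. Vpreb2 is nearly identical to Vpreb1 in mouse, and its own probe was not detected on any array. Whether the Vpreb1 probe also reads Vpreb2 was not tested.

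Blnk, the adaptor of the receptor's signalling complex, had the largest difference of the 9 genes between winners and losers. It stood at 8.69 and 7.43 in winners and was not detected in losers, at 4.20 and 4.30. Each remaining group held 1 array with Blnk detected and 1 without: 4.56 and 6.66 in non-competing mp53 cells, 4.35 and 6.83 in non-competing WT cells, 4.19 and 5.65 in unirradiated mp53 cells, and 5.71 and 4.27 in unirradiated WT cells. The gene was thus detected on 6 of 12 arrays, and the SD within those 4 groups was 1.01 to 1.75. Winners lay at least 9.32-fold above losers (difference 3.81, SE 1.00, unadjusted limma p 0.00438). Within the replicates, the difference was 4.49 and 3.13. A second Blnk probe was not detected on any array (4.26 to 4.58).

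Rasgrp3, the Ras activator of the pathway, was high on both winner arrays, at 6.11 and 5.68. The losers were not detected, at 4.33 and 4.25, and the highest of the 10 arrays outside winners was 4.71, replicate 2 of the unirradiated mp53 cells. Winners lay at least 2.08-fold above losers (difference 1.61, SE 0.26, unadjusted limma p 0.000176, adjusted p 0.292), with 1.78 and 1.44 within the replicates. With a trended and robust prior for the spread, limma's adjusted p was 0.0425, which made Rasgrp3 one of 3 probes called under that setting. Its second probe was not detected on any array.

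The Fc receptor relatives were also high on both winner arrays. Fcmr, the receptor for the constant part of IgM, had 8.48 and 6.79 in winners, against 4.28 and 4.75 in losers, where it was not detected. Elsewhere it was detected on 3 arrays, at 5.97 in non-competing mp53 cells, 4.70 in non-competing WT cells and 5.11 in unirradiated WT cells. Winners exceeded losers at least 6.94-fold (difference 3.12, SE 0.58, unadjusted limma p 0.000533). Fcrla, an intracellular Fc receptor relative of B cells, had 6.39 and 5.58 in winners, against 4.25 and 4.31 in losers. Its highest value outside winners was 4.79, in non-competing mp53 cells, and no other array outside winners detected it. The difference from losers was 1.71 (SE 0.32), at least 2.21-fold, with an unadjusted limma p of 0.000582. The other 2 Fcrla probes were not detected on any array (4.25 to 4.73).

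Of the transcription factors, 1 was measured. Ebf1 read 5.73 and 5.05 in winners and was not detected in losers, at 4.36 and 4.42, but replicate 2 was detected at 5.06 in non-competing mp53 cells, 5.67 in non-competing WT cells and 5.07 in unirradiated mp53 cells. Winner replicate 2 therefore lay below 3 arrays of other groups. The difference of winners from losers was 1.00 (SE 0.49, at least 1.47-fold, unadjusted limma p 0.0713, adjusted p 0.392), and 0.28 with median scaling. Of 3 further Ebf1 probes, each was detected on 1 or 2 arrays, at 4.91 or below. Pax5, the commitment factor, has 1 probe, which was not detected on any array (4.24 to 4.67, lowest detection p 0.0861). No level of Pax5 can be set against those of its target genes from that probe.

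**Figure D2:**
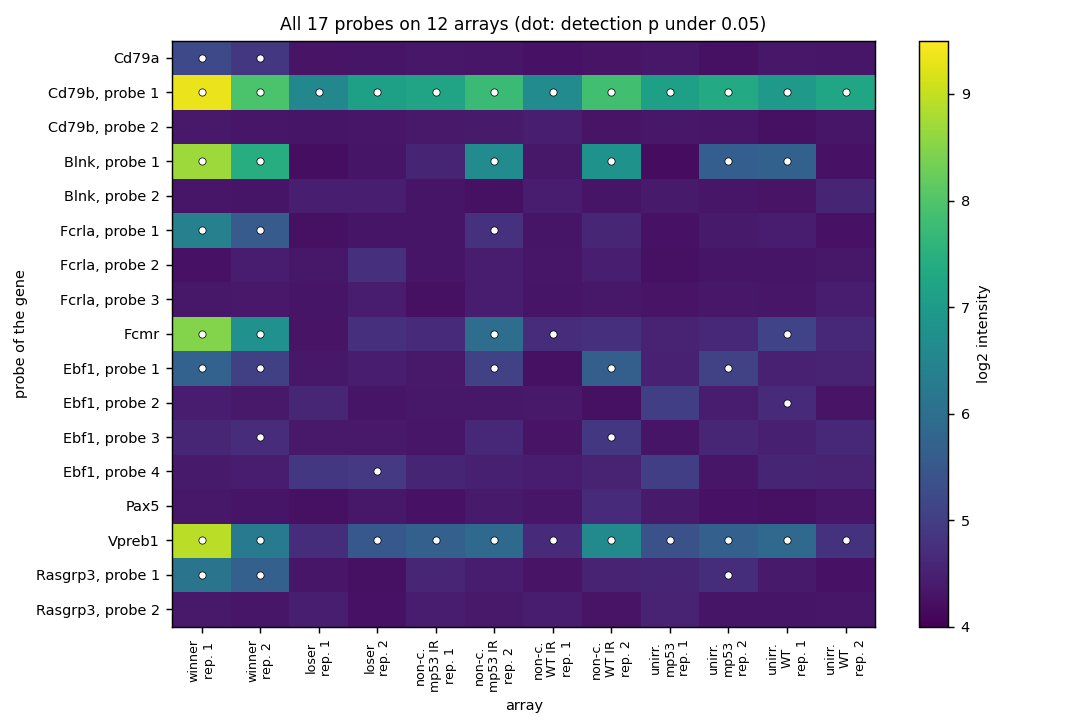
Log2 intensity (colour) of all 17 probes (rows, by gene) on the 12 arrays (columns, by group and replicate), with a dot where the detection p-value was under 0.05. The 8 probes kept for testing carry nearly all dots, and the 9 others were detected in 4 of 108 values, none above 5.03.

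Of the 17 probes, 8 passed the filter for testing (detected on both arrays of at least 1 group), and 6 of these passed through the winners alone: Cd79a, Blnk, Fcrla, Fcmr, Ebf1 and Rasgrp3. Such a probe had to lie high in winners, so the counts over tested members that follow describe these genes and are no support for a difference. Between winners and losers, 7 of 8 tested members had an unadjusted limma p under 0.05 with winners higher, against 7.34% of all tested probes, and 0 had one with winners lower, against 6.37%. Over all 17 probes, tested or not, both winner arrays were above both loser arrays for 9 and below them for 2, against 17.2% and 23.1% of all probes on the array. The median difference over the 9 genes was 1.71, with 2.15 in replicate 1 and 0.81 in replicate 2, against -0.037 over all tested probes. With the 6 genes that losers did not show at their bounds, the median over 8 genes was 1.47. Without winner replicate 1 the median over the 9 genes was 1.14. The limma adjusted p was 0.292 for 6 genes, 0.319 for Vpreb1 and 0.392 for Ebf1.

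Winners were also compared with non-competing mp53 cells, which share genotype and exposure and differ in the mouse around them. The median difference of the 9 genes was 1.38, against -0.051 over all tested probes. It was 2.07 in replicate 1 and 0.57 in replicate 2. Rasgrp3 (1.38, SE 0.26, at least 2.39-fold), Fcrla (1.43, SE 0.32) and Fcmr (2.33, SE 0.58) had the smallest unadjusted limma p-values of the 9 genes, at 0.000515, 0.00182 and 0.00345. In all, 5 of 8 tested members had an unadjusted limma p under 0.05 with winners higher, against 1.35% of tested probes, and 0 with winners lower, against 1.56%. Every adjusted p from limma was 1.00. Ebf1 overlapped between these groups (difference 0.68, SE 0.49), and in replicate 2 it differed by -0.01. Over all 17 probes the arrays stood apart with winners higher for 8 and lower for 1, against 12.7% and 15.4% of all probes. Without winner replicate 1 the median was 0.56.

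Irradiation was compared within the mp53 cells of mosaic mice by setting winners against unirradiated mp53 cells. The labels call the unirradiated cells free of competition, so irradiation and competition change together here and cannot be told apart. The median difference was 1.40, with 2.12 in replicate 1 and 0.66 in replicate 2, and 0.73 without winner replicate 1. Blnk (3.14, SE 1.00), Fcmr (3.07, SE 0.58, at least 6.79-fold) and Vpreb1 (2.06, SE 0.89) had the largest differences, and Ebf1 the smallest of the tested genes (0.60, SE 0.49). With winners higher, 7 of 8 tested members had an unadjusted limma p under 0.05, and 0 with winners lower, against 6.38% and 6.94% of tested probes, and adjusted p-values were 0.370 to 0.534. Both winner arrays were above both unirradiated mp53 arrays for 7 of the 17 probes and below them for 0, against 15.8% and 20.5% of all probes on the array. This comparison and those against losers and non-competing mp53 cells share the 2 winner arrays, so their values are not independent of one another.

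**Figure D3:**
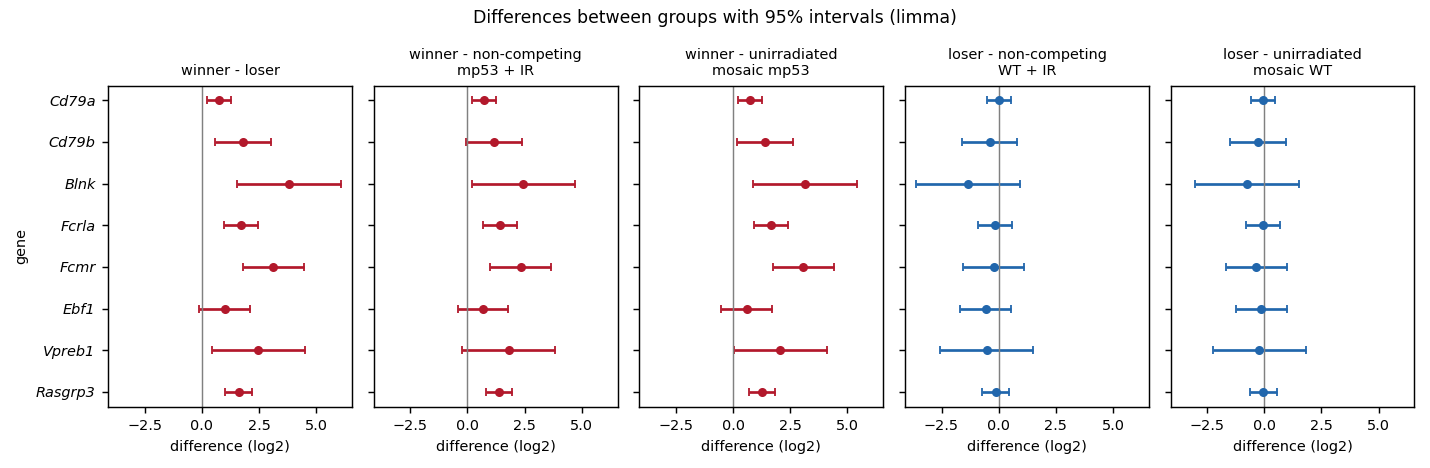
Differences of group means in log2 (points) with 95% intervals from limma (horizontal bars) for the 8 tested genes (rows), for winner minus loser, non-competing mp53 or unirradiated mp53, and for loser minus non-competing WT or unirradiated WT. Winner differences lie at 0.60 or above. The interval of Ebf1 spans 0 in each winner panel, and those of Cd79b and Vpreb1 do so against non-competing mp53. Loser differences run from -1.34 to 0.02 with every interval spanning 0.

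In the WT cells of mosaic mice, the direction of the differences turned with the scaling of the arrays. Losers against non-competing WT cells had a median difference of -0.21, with 1 of the 9 genes higher and 8 lower, and a median of 0.067 with median scaling. None of the 8 tested members had an unadjusted limma p under 0.05, against 1.81% of tested probes higher and 2.26% lower. Blnk differed most (-1.34, SE 1.00, 95% interval -3.61 to 0.93, at least 1.68-fold lower), and it was detected at 6.83 in replicate 2 of the non-competing WT cells. Against unirradiated WT cells the losers' median difference was -0.13, and 0.49 with median scaling, again with 0 of 8 members under an unadjusted limma p of 0.05 (1.67% of tested probes higher, 2.14% lower). Blnk also had the largest value there (-0.74, SE 1.00, 95% interval -3.01 to 1.53). In losers, Cd79a, Blnk, Fcrla, Fcmr, Ebf1 and Rasgrp3 were not detected on either array, so their rank among the groups is not measured. Cd79b, detected on both loser arrays, and Vpreb1, detected on 1, had their lowest mean there (6.85 ± 0.40 and 5.12 ± 0.57, SD, n = 2).

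Outside the competition, differences between the genotypes passed no test. Between non-competing mp53 and WT cells the median difference of the 9 genes was 0.10, and single genes ran from -0.25 (Ebf1) to 0.58 (Fcmr, SE 0.58, 95% interval -0.75 to 1.91). None of the 8 tested members had an unadjusted limma p under 0.05, against 0.725% of tested probes higher and 0.237% lower. The sign of this median depended on single arrays: it was -0.34 without non-competing WT replicate 1 and 0.46 without replicate 2. In unirradiated mosaic mice, mp53 against WT cells gave a median of 0.04, with Rasgrp3 at 0.30 (SE 0.26) and Fcmr at -0.30 (SE 0.58) as extremes. There too 0 of 8 members had an unadjusted limma p under 0.05, against 2.19% of tested probes higher and 2.18% lower. With 2 arrays a group the 95% intervals were wide, from -2.25 to 2.29 for Blnk and from -0.98 to 1.45 for Cd79b in non-competing cells.

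In mosaic mice irradiation came together with competition. Whether this joint change moved mp53 cells differently from WT cells was tested as a difference of differences. Its median was 1.66, with 2.29 in replicate 1 and 0.71 in replicate 2, and 0.66 with median scaling of the arrays. Fcmr (3.42, SE 0.82), Fcrla (1.71, SE 0.46) and Rasgrp3 (1.30, SE 0.36) had unadjusted limma p-values of 0.00275, 0.00492 and 0.00623. In total 5 of 8 tested members were under 0.05 in the positive direction, and 0 in the negative, against 6.31% and 9.24% of tested probes, with limma adjusted p-values of 0.301 to 0.583. Median scaling gave 0.66 for Fcrla and 0.36 for Rasgrp3, and turned Cd79a to -0.65 and Ebf1 to -0.50. For Vpreb1 the replicates disagreed in sign, with 4.72 and -0.15. Without winner replicate 1 the median was 0.96. The like test for competition (winner minus non-competing mp53, less loser minus non-competing WT) had a median of 1.56, and 4 of 8 members were under an unadjusted limma p of 0.05 in the positive direction and 0 in the negative, against 4.29% and 3.49% of tested probes. Adjusted p-values from limma were 0.599 to 0.698 there. Rasgrp3 had 1.51 (SE 0.36) and Blnk 3.79 (SE 1.41) in that test, and without winner replicate 1 the median was 1.01.

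The number of the 9 genes detected on an array was set beside the array's brightness, since detection depends on signal. Both winner arrays showed 8 genes at a 95th percentile of raw intensity of 258 and 1079. Unirradiated mp53 replicate 2, at 257, showed 5 genes, unirradiated WT replicate 1, at 265, showed 4, and non-competing WT replicate 1, at 244, showed 3. Non-competing mp53 replicate 2, the brightest array after winner replicate 2, at 482, showed 6 genes, and unirradiated WT replicate 2, at 439, showed 2. The dimmest arrays were those of the losers and unirradiated mp53 replicate 1, with 1 or 2 genes each. With brightness as a covariate the median difference of winners from losers was 1.92.

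**Figure D4:**
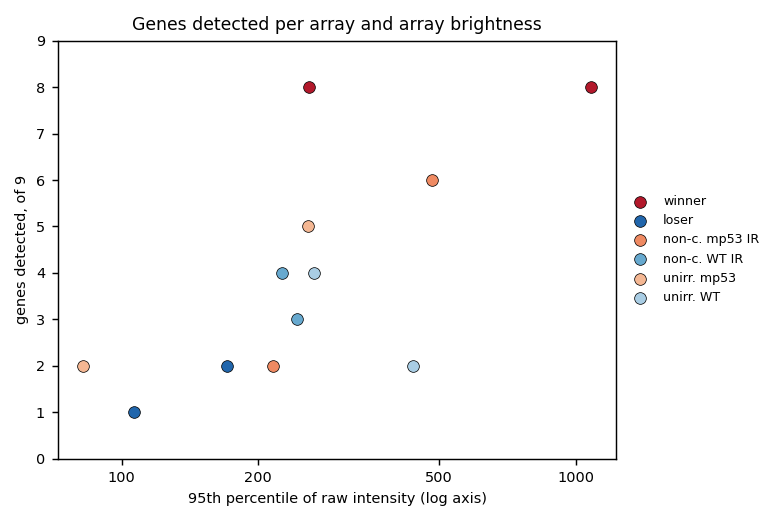
Number of the 9 genes detected on each array (vertical axis) against the array's 95th percentile of raw intensity (horizontal log axis), coloured by group. The winner arrays show 8 genes at 258 and 1079, the array at 482 shows 6, the 3 dimmest show 1 or 2, and 3 arrays between 244 and 265 show 3 to 5.

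Genes of the wider B lineage programme lay on both sides between winners and losers. Of 5 genes of the precursor receptor and immunoglobulin rearrangement on the array, 2 passed the filter, both of them through winners alone. Both were higher on both winner arrays than on both loser arrays, against 17.2% of all probes on the array. This follows largely from the filter, and their values are given as a description. Rag1, a subunit of the recombinase that cuts receptor gene segments, had 7.21 and 5.12 in winners, against 4.80 and 4.42 in losers (at least 2.51-fold, unadjusted limma p 0.0245). Vpreb3, a relative of Vpreb1, had 6.25 and 5.08 in winners, against 4.41 and 4.26 in losers (at least 1.77-fold, unadjusted limma p 0.0143). The related Rag2 was detected on winner replicate 1 alone, at 4.81, and Dntt, the polymerase that adds bases at the joints, was not detected on any array. Vpreb3 was also detected in replicate 2 of non-competing mp53 cells (4.63) and of non-competing WT cells (5.33).

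Among 18 tested genes of B cell receptor signalling, 3 had an unadjusted limma p under 0.05 with winners higher and 1 with winners lower, against 7.34% and 6.37% of tested probes, and the median was 0.27. Prkcb, the protein kinase C of the B cell pathway, had 8.38 and 8.03 in winners, against 4.45 and 6.61 in losers. In replicate 2 of non-competing mp53 and WT cells it read 8.19 and 8.03. Rasgrp1, the relative of Rasgrp3 best known from T cells, had 7.66 and 6.04 in winners, against 4.34 and 4.50 in losers. In replicate 2 of non-competing mp53 cells it read 6.53. Dapp1, an adaptor that binds membrane phosphoinositides, went the other way, with 7.50 and 7.25 in winners and 9.58 and 8.52 in losers (difference -1.67, SE 0.51, unadjusted limma p 0.0106). Pik3r1, a regulatory subunit of phosphoinositide 3-kinase, overlapped between the groups (difference -0.71, SE 0.54).

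Of 12 tested B cell transcription factors, 4 had an unadjusted limma p under 0.05 with winners higher and 2 with winners lower, against 7.34% and 6.37% of tested probes, with a median of 0.36. Irf8, a factor of B cells that monocytes and dendritic cells also use, had 8.99 and 7.74 in winners, against 4.29 and 4.47 in losers (at least 11.5-fold, unadjusted limma p 0.00199). It also read 7.08 and 6.87 in non-competing WT cells and 7.21 in replicate 1 of unirradiated WT cells. Bcl6, the repressor of germinal centre B cells, had 9.29 and 8.91 in winners, against 5.62 and 5.72 in losers. In replicate 2 of non-competing mp53 and WT cells it read 8.62 and 9.01. Bcl11a, needed for early B cells and also present in HSCs, was lower at 7.44 and 7.45 in winners, against 8.59 and 8.72 in losers, and Lef1 was lower by a difference of -0.78 (SE 0.26). Of 15 tested surface genes and co-receptors, 5 had such a p with winners higher and 1 lower, against 7.34% and 6.37% of tested probes (median 0.44). They include Fcrl1, an Fc receptor relative of B cells (6.97 and 6.24 in winners, against 4.29 and 4.28 in losers). Fcrl1 also read 6.61 in replicate 2 of non-competing mp53 cells. Ly86, the partner of Cd180, was higher (2.31, SE 0.49) while Cd180 itself was lower (-1.07, SE 0.53). The gene lower with such a p was Fcrl5, an Fc receptor relative of B cells (4.72 and 4.41 in winners, against 5.47 and 5.49 in losers, unadjusted limma p 0.0370). Limma's adjusted p was under 0.05 for 0 genes of these lists. Any gene of them that passed the filter through winners alone had to lie high there, so the counts are given as a description.

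**Figure D5:**
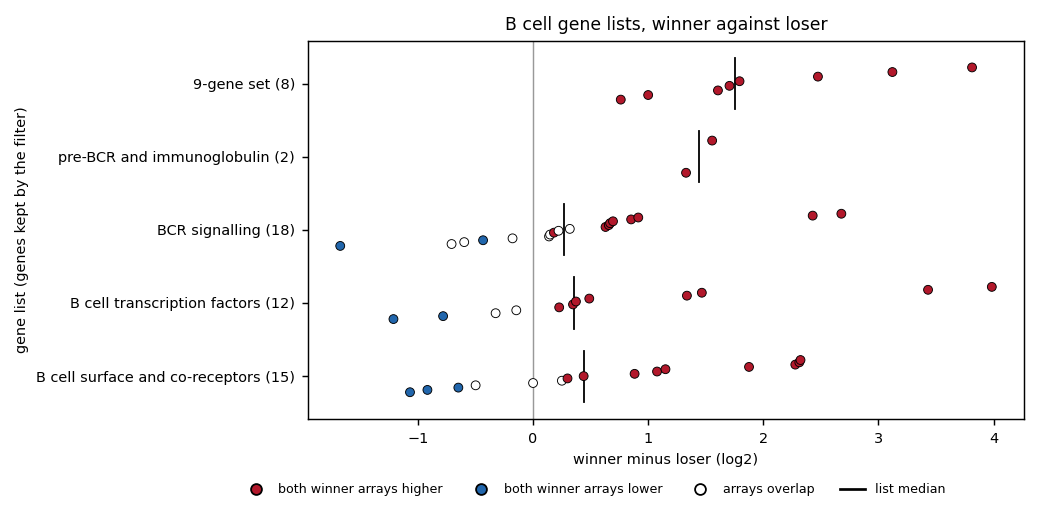
Winner minus loser difference in log2 (horizontal axis) of each tested gene (points) in the 9-gene set and 4 B cell lists (rows, number of tested genes in brackets), coloured by whether both winner arrays were higher, both lower, or overlapping. Bars mark medians over tested genes, 1.75 for the 8 tested genes of the set and 0.27 to 1.44 for the other lists.

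Markers of mature B cells lay on both sides between winners and losers, with 3 of 4 tested ones higher by their means and 0 with an unadjusted limma p under 0.05. Of 7 such markers on the array, 6 and 3 were detected in winners, against 2 and 2 in losers and 2 to 4 on each array of the other groups. Cd22, a co-receptor of mature B cells, was not detected on any array. Ms4a1, which encodes CD20, was detected at 4.99 on 1 winner array and at 6.11 on 1 loser array, and its highest value was 6.65 in unirradiated mp53 cells. Cd72, a co-receptor of B cells, had 5.71 and 5.43 in winners, against 4.42 and 4.96 in losers, and was detected on 9 arrays. Cd37, a tetraspanin of B cells, was detected on both winner arrays, at 4.67 and 4.62, against 4.77 and 4.53 on the loser arrays, where it was not detected. Fcer2a and Cr2, receptors of mature B cells, were detected on winner replicate 1 alone, at 5.04 and 4.62. The summed linear level of this list, most of it the pan-leukocyte gene Ptprc, was 311 to 1247 in winners, against 171 to 571 in losers. Jchain, the joining chain of secreted immunoglobulin, was detected at 6.25 in winner replicate 1 and 4.66 in unirradiated WT replicate 1, and Sdc1 and Prdm1, markers of plasma cells, on no array. Xbp1, the tested plasma cell marker, was detected on all 12 arrays. It read 10.51 and 10.85 in winners, against 9.94 and 10.28 in losers, and 10.93 in replicate 2 of non-competing WT cells.

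Most tested markers of other blood cells were also higher in winners than in losers by their means, and some other arrays reached winner levels. All 12 granulocyte and monocyte markers were higher in winners than in losers by their means (median 2.07), with 12 detected on each winner array, against 7 and 11 on the loser arrays. Their summed linear level was 46491 to 55014 in winners and 7691 to 31386 in losers, and 43750 to 58428 in non-competing WT cells. In non-competing mp53 cells it was 1093 to 54227. Replicate 2 of the non-competing WT cells had the highest granulocyte and monocyte sum of all 12 arrays and also the highest summed level of the 9 genes outside winners (612). For T and NK cells, 6 of 9 markers were detected on each winner array, against 1 and 2 in losers (summed level 556 to 1240 against 208 to 632). Non-competing mp53 cells had 3 and 6 of these markers detected, with a summed level of 317 to 1109. All 6 tested ones were higher in winners by their means, 4 with an unadjusted limma p under 0.05, against 7.34% of tested probes. Of these 6, Cd3e, Cd2 and Thy1 passed the filter through winners alone, so the counts are given as a description. Cd3d, a chain of the T cell receptor complex, had 6.88 and 8.58 in winners, against 4.76 and 4.50 in losers (at least 7.41-fold). It read 8.46 in replicate 2 of non-competing mp53 cells. Cd3e had 5.42 and 5.75 in winners, against 4.43 and 4.32 in losers, and Thy1 had 5.16 and 5.19, against 4.31 and 4.37. Cd3g, Cd4 and Gzma were detected on no array. Plasmacytoid dendritic markers summed to 750 to 1151 in winners and 544 to 564 in losers. Of 4 tested ones, Irf8 (given above) and Cox6a2 (7.25 and 6.77 in winners, against 4.66 and 4.35 in losers, at least 4.50-fold) were higher on both winner arrays than on both loser arrays. The 2 others, Siglech (difference -0.29, SE 0.31) and Bst2 (-0.16, SE 0.39), overlapped and had lower means in winners. Cox6a2 and Siglech passed the filter through winners alone. Cox6a2 also read 6.83 in replicate 2 of non-competing mp53 cells. Ly6d and Ccr9 were detected on no array. Erythroid markers summed to 1634 to 3209 in winners, 271 to 1009 in losers and 398 to 1660 in non-competing mp53 cells. The part of these other blood cell types in the result was not tested.

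HSC markers lay lower on the winner arrays. All 7 tested HSC markers were lower on both winner arrays than on both loser arrays (median -2.56), against 23.1% of all probes on the array. For 1 of them, Slamf1, the difference within replicate 1 was -0.02, between arrays that did not detect it. The HSC list summed to 339 to 612 in winners, against 3206 to 4111 in losers and 1089 to 5007 in the other groups. Procr and Hlf, also known as HSC markers, were detected on no array. Of the genes that encode the sort antigens, Cd48 was at 7.95 and 6.05 in winners, against 4.92 and 4.998 in losers, although cells were sorted as negative for CD48. It also read 6.54 in replicate 1 of non-competing WT cells and 6.63 in replicate 1 of unirradiated WT cells. Kit was at 5.57 and 5.92 in winners, against 6.34 and 7.45 in losers. Slamf1, which encodes CD150, was detected on 3 arrays only. These were 1 loser array (5.69) and both arrays of unirradiated WT cells (4.64 and 5.02), so winners shared its absence with most groups. The part of the sort in the differences of the 9 genes was not tested.

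Over the 12 arrays, the levels of the 8 measured genes correlated with each other at a median of 0.876 (28 pairs, 0.554 to 0.982), and over the 10 arrays without winners at 0.534 (-0.334 to 0.913). These points share arrays and brightness, and the correlations are given as a description. Of 8366 other genes compared, those most like the mean of the 8 standardised genes were Il7r (r = 0.952), 4930426D05Rik (0.949), Srpk3 (0.943), Nsun3 (0.939), Rec114 (0.936) and Sf3b6 (0.935). Il7r encodes the interleukin 7 receptor alpha chain, with a winner mean of 6.14 and 4.21 to 5.44 on the other arrays. To Cd79a alone, the most alike were Igfbp5 (0.974), Kmo (0.948) and Itgb3 (0.942), each detected on 2 arrays. Each was higher on both winner arrays than on all others, against 1.94% of all probes on the array. Cd79a was itself detected on the winner arrays alone, so this follows largely from the choice by likeness.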

How the data were processed

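The members and lists were chosen with earlier results of these data known. The authors deposited, per the file headers, a linear probe intensity, neither normalized nor background-subtracted, and its detection p-value, in 1 table per replicate number. They also deposited a table of processed intensities, used as an alternative only. The software behind these values is not given in the sources used here. Background was removed by normexp, with negative controls inferred from detection p-values (offset 16), log2 transformed and quantile normalized over 12 arrays (limma 3.58.1, R 4.3.3). Any probe that both arrays of some group detected (p under 0.05) was tested, 13512 of 46632. The platform annotation gave 29976 probes 1 symbol, 10 several and 16646 none, and 0 value columns were left unmatched.

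A limma model with 6 group means (6 residual degrees of freedom) gave 9 comparisons, adjusted by Benjamini-Hochberg over 13512 probes and tested on simulated data. A gene is its brightest kept probe. "At least" folds give a group without detection, on each array, the lowest value any detected probe had there, or its own if that was higher. Named beyond the 9 genes were, per list of the wider B lineage programme, the 2 largest differences each way, where present, for winner against loser. The other genes named, among them the cell type markers, were chosen after their values were seen, and not every marker is named. Those most alike by Pearson r were 6 for the set and 3 for Cd79a. Alternatives covered offset, normalization, filter, prior, replicate number, brightness and left-out arrays. The number of arrays limits the precision.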

Additional observations from a re-analysis of the deposited data

How the results depend on the processing

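With 2 arrays a group and probes near the detection limit, the direction of the winner differences held better than their size. For the 6 genes that passed the filter through winners alone, that direction follows largely from the filter. Differences of single genes reversed in 5 cases, all with arrays scaled by their medians in place of quantiles: Cd79a between winners and losers (-0.071), for irradiation in mp53 cells (-0.040) and for its interaction with genotype (-0.65), and Ebf1 for irradiation in mp53 cells (-0.012) and for that interaction (-0.50). Their cause was not tested. Under that scaling the median over the 9 genes was 1.28 for winner against loser, 0.66 for the interaction of irradiation and genotype, 0.58 for mp53 against WT in unirradiated mice and 0.49 for irradiation in WT cells, the last turned from -0.13. The medians for loser against non-competing WT (0.067) and for mp53 against WT in irradiated mice without competition (-0.15) also turned sign. A normexp offset of 50, which by construction shrinks differences of dim probes, gave 0.92 for winner against loser, 0.80 for winner against non-competing mp53, 0.89 for irradiation in mp53 cells, and 0.92 and 0.87 for the interactions of irradiation and of competition with genotype. The authors' processed intensities gave 1.27, 0.96, 1.27 and 1.18 for winner against loser, winner against non-competing mp53 and these interactions in turn. For the interaction of irradiation and genotype, brightness as a covariate gave 2.06 and leaving out the 2 dimmest arrays gave 1.27. Leaving out 1 array at a time gave medians of 1.14 to 2.11 for winner against loser, 0.56 to 1.84 for winner against non-competing mp53, 0.73 to 2.05 for irradiation in mp53 cells, 0.96 to 2.12 and 1.01 to 2.00 for the interactions of irradiation and of competition, and -0.34 to 0.46 for non-competing mp53 against WT. For the first 5 the lowest came without winner replicate 1 and the highest without winner replicate 2. A lone array left in a group is assumed to vary like the others.

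The trended and robust prior gave 1 called gene, Rasgrp3 (limma adjusted p 0.0425), for winner against loser and 0 elsewhere. Detection p under 0.01 kept 10043 probes and dropped Cd79a. Taking the mean of a gene's kept probes changed no member value, since each has 1. The other recomputed values, 869 of single genes and 367 of medians and counts, kept their direction and side of the threshold or moved by less than the spread between arrays.

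Replicate numbers follow the deposited tables. Deviations of same-numbered arrays correlated over 0.1 for 14 of 15 pairs of groups (lowest 0.06, median 0.53, highest 0.64), and 12 of 12 arrays correlated best with an array of their own number, a hint from the data and not the design. With the replicate number as a block, limma had unadjusted p under 0.05 for 3552 probes for winner against loser (1853 without it), 760 for winner against non-competing mp53 (394), 1357 for loser against non-competing WT (551), 290 and 1715 for mp53 against WT in non-competing and unirradiated cells (130 and 591), 3614 and 1357 for irradiation in mp53 and WT cells (1800 and 515), and 3940 and 2054 for the interactions of irradiation and of competition (2101 and 1051). The adjusted p was under 0.05 for 0 probes with the block, and the smallest among the 9 genes was 0.0951.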

Other observations

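On winner replicate 1, some transcripts known from early and from late B lineage cells were detected side by side. Rag1 (7.21), Vpreb1 (8.93) and Vpreb3 (6.25), used by B cell precursors, stood there beside Jchain (6.25), Fcer2a (5.04) and Cr2 (4.62), known from mature or antibody-secreting cells. Others of both kinds were not detected on that array: Vpreb2, Dntt, Pax5, Cd22, Sdc1 and Prdm1. Ms4a1 was detected there at 4.99, below its 6.11 on loser replicate 1. Which cells these transcripts came from was not tested. On winner replicate 2, Rag1 (5.12), Vpreb1 (6.26) and Vpreb3 (5.08) were detected, and Jchain, Fcer2a and Cr2 were not. Unirradiated WT replicate 1 also showed Jchain (4.66) beside Rag1 (4.78) and Vpreb1 (5.89). These genes were picked out after their values were seen, and the array held RNA of 200 cells, so the number of cells behind them is unknown.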
